A study of Mus musculus with 2 samples.

Results

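Igf2, H19, Cdkn1c, Igf2r, Igf1r, Grb10 and Phlda2, 7 genes of growth control, were described in long-read RNA sequencing of the adrenal gland. Members were taken by gene name from the deposited transcript tables, with every transcript model of each gene, together with the models lying on the strand opposite to Igf1r. The 7 genes held 56 of 112323 models and 753 reads in replicate 1, and 57 of 112820 models and 1043 reads in replicate 2, among 18177 annotated genes with reads. The series has 1 group: adrenal glands of male B6CASTF1/J mice, an F1 hybrid strain, at 14 days of age, with 2 libraries called biological replicates 1 and 2. No genotype or treatment other than the strain is named. The labels write "3x Males" without saying how many animals were pooled. Both libraries carry the same donor identifier, and the biosamples are numbered 3 and 4, so differences between the 2 libraries may be technical. The p-values cover counting error only and do not measure the spread between libraries or animals. The files give no allele for any read, so parental origin was not measured.

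Imprinted genes are transcribed mainly from the maternal or the paternal copy. Igf2 encodes insulin-like growth factor II, a fetal growth factor expressed from the paternal copy, and H19 is a noncoding RNA beside it, expressed from the maternal copy and host of the microRNA miR-675. Insulin-like growth factors signal through the receptor tyrosine kinase encoded by Igf1r, while Igf2r encodes a receptor that carries IGF-II to the lysosome for degradation. Cdkn1c encodes p57, an inhibitor of cyclin-dependent kinases that restrains proliferation and is expressed in the adrenal cortex. Grb10 encodes an adaptor that dampens signalling from the insulin and IGF-I receptors, and Phlda2 encodes a small pleckstrin-homology protein known as a brake on placental growth. In mice Igf2, Igf2r, H19, Cdkn1c, Grb10 and Phlda2 are imprinted, whereas Igf1r is not known as an imprinted gene in this species.

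The sequences that carry the main observations are those at which Cdkn1c reads were spliced in different ways. The annotation (GENCODE M21, mm10) places Cdkn1c on chromosome 7 from 143458339 to 143461050, minus strand. All Cdkn1c sequences below are written on the transcribed strand, from GENCODE M21 transcripts. Intron 1 can end at a tandem acceptor, 2 copies of CAG in a row. The first capitals mark both copies and the last capitals the start codon of the transcript Cdkn1c-201, at chr7:143460660-143460689:
intron 1 acceptor: tacctccgCAGCAGaacagcgATGgaacgc
Exon 2 can be 36 bases longer at its end (chr7:143459759-143459794). The added bases are in capitals, between the last bases of the shorter exon 2 and the first bases of exon 3:
exon 2 extension: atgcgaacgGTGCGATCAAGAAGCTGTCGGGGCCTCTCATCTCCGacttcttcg
Some reads lacked a stretch inside the coding part of exon 2, of 84 bases (chr7:143460027-143460110) or of 59 bases (chr7:143460015-143460073). The absent bases are in capitals, with 12 bases on each side:
84 bases: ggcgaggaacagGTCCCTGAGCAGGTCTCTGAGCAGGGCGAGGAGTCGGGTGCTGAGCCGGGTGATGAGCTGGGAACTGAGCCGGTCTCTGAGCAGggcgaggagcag
59 bases: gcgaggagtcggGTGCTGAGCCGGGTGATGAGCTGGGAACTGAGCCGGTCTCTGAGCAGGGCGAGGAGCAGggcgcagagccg

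Levels are given in CPM, a gene's reads scaled to 1000000 of the reads left without ERCC spike-ins, which were 964679 in replicate 1 and 984958 in replicate 2. A count of 0 allows up to 3 reads, which is 3.11 CPM for replicate 1 and 3.05 CPM for replicate 2. Intervals are at 95% and cover counting error only, since the counts carry no molecular identifiers. Genes with 10 reads or more in the sum of the libraries were compared between them by a two-sided exact binomial test with Benjamini-Hochberg adjustment over all 11094 such genes, at a threshold of 0.05. This test called 1017 genes (9.17% of those tested), 483 higher in replicate 2 (4.35%) and 534 higher in replicate 1 (4.81%). The median gene lay at a log2 ratio of -0.15 (replicate 2 over replicate 1), and TMM scaling, which brings that median to 0.00, called 872 genes (7.86%), of which replicate 2 was the higher for 664 and replicate 1 for 208. The adrenal markers were present in both libraries: 4 cortex markers summed to 28781 and 29950 CPM and 5 chromaffin markers to 8172 and 7942 CPM. The 7 liver markers summed to 741 CPM in replicate 1 and 15405 CPM in replicate 2, and all 7 were called higher in replicate 2, with ratios from 16.8 (Fgb) to 27.9 (Apoa2), so replicate 2 stands apart by its liver transcripts. Fat markers were also present, the 2 brown fat markers at 5078 and 5110 CPM.

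Cdkn1c had by far the most reads of the 7 genes and H19 came second, while Phlda2 and Grb10 were at or near the limit of detection. Cdkn1c, the cell-cycle inhibitor, had 683 reads (708 CPM) in replicate 1 and 863 reads (876 CPM) in replicate 2, a mean of 792 ± 119 CPM (SD, n = 2), and ranked 153 of 18177 genes. H19 had 34 reads (35.2 CPM) and 126 reads (128 CPM), a mean of 81.6 ± 65.5 CPM (SD, n = 2). Igf2r had 25 reads (25.9 CPM) and 20 reads (20.3 CPM), and Igf1r had 6 reads (6.22 CPM) and 19 reads (19.3 CPM). These receptors thus lay far below Cdkn1c in both libraries. Igf2 had no reads in replicate 1 and 11 reads (11.2 CPM) in replicate 2. Grb10 had 3 reads and 4 reads (3.11 and 4.06 CPM), and Phlda2 had 2 reads in replicate 1 (2.07 CPM) and none in replicate 2. Each long read is counted once whatever its length, so these levels were not divided by transcript length. Neighbours in this order were not always apart: in replicate 1 the counting intervals of H19 (24.4 to 49.3 CPM) and Igf2r (16.8 to 38.3 CPM) overlapped, and in replicate 2 those of Igf2r (12.4 to 31.4 CPM) and Igf1r (11.6 to 30.1 CPM) overlapped.

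**Figure D1:**
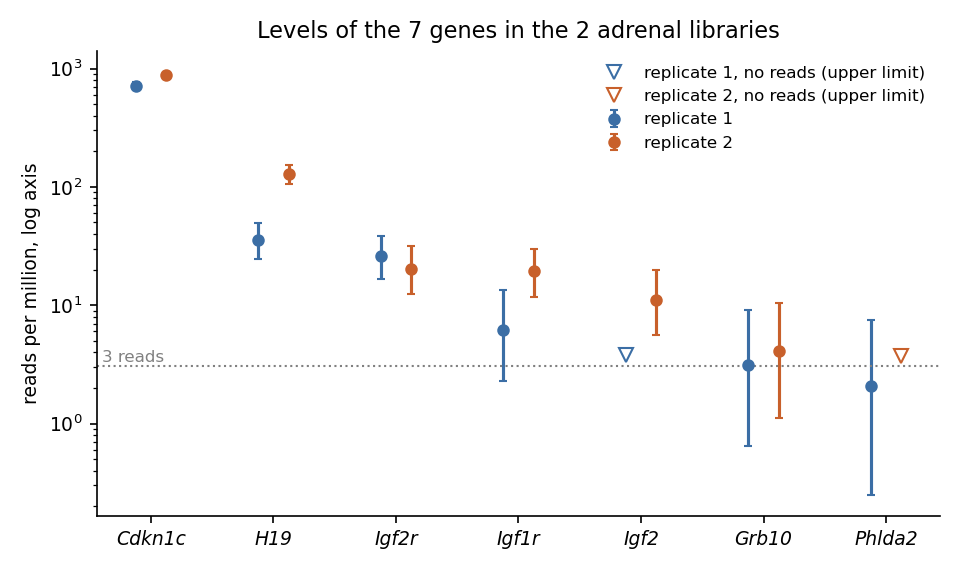
Level of each of the 7 genes in CPM (log axis) in replicate 1 (blue) and replicate 2 (orange), with exact 95% counting intervals. Open triangles mark the upper interval bound of a library with no reads, and the dotted line marks 3 reads. Cdkn1c sits at 708 and 876 CPM, and the points of H19 are at 35.2 and 128 CPM.

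Between the libraries, 3 of the 5 members with enough reads for the test were called, Igf2, H19 and Cdkn1c, and all 3 were higher in replicate 2. Igf2 (0 and 11 reads) had enough reads only through replicate 2, so its direction was not free to differ. For comparison, 4.35% of all tested genes were called higher in replicate 2, and 5.99% with TMM scaling. The median log2 ratio of the 5 tested members was 1.55, against -0.15 over all tested genes. With 5 genes that median is the value of Igf1r alone (6 and 19 reads, not called), and Igf2r lay on the other side with a ratio of 0.784. The other two members, Grb10 and Phlda2, had too few reads to be tested, so these counts describe 5 of 7 genes only. The same count of 3, with the same genes, was obtained under TMM, median-of-ratios and spike-in scaling.

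H19, annotated on chromosome 7 from 142575529 to 142578143 on the minus strand, was 3.63-fold higher in replicate 2 (95% interval 2.47 to 5.47, adjusted p = 2.05e-11, exact binomial test). Annotated transcripts held 33 of its 34 reads in replicate 1 and 104 of 126 in replicate 2. The full 5-exon transcript of 2286 bases took 32 of 34 reads in replicate 1 and 98 of 126 in replicate 2, and a shorter annotated 5-exon transcript of 1521 bases took 1 and 5. Replicate 2 also held 11 reads of an unspliced model of 586 bases at the 3′ end, 6 reads of a 4-exon partial model and 3 reads of a 3-exon partial model, none of which was listed in replicate 1. Of full-splice reads, those whose whole intron chain is known or new rather than partial, the full 5-exon transcript took 97.0% in replicate 1 (Wilson 84.7% to 99.5%) and 93.3% in replicate 2 (86.9% to 96.7%). This share was not called different (adjusted p = 1, two-sided Fisher's exact test, in which 0.125% of 4817 genes were called). The higher H19 count in replicate 2 was therefore carried mostly by the same 5-exon transcript.

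The first exon of both 5-exon transcripts of H19 contains the hairpin of miR-675 (chromosome 7, 142577064 to 142577147, minus strand). The mature arms are printed because H19 transcripts are their precursor, in RNA letters from RefSeq (GRCm38.p6) with the seed, bases 2 to 8, in capitals:
mmu-miR-675-5p: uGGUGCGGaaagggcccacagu
mmu-miR-675-3p: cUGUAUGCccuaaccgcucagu
Models that contain the hairpin held 33 of 34 H19 reads in replicate 1 (97.1%, Wilson 85.1% to 99.5%) and 104 of 126 in replicate 2 (82.5%, 75.0% to 88.2%). These are counts of host transcript models, and cleavage at the hairpin was not measured. The mature microRNA is too short for this assay and was not measured, and the deposited known models carry the annotated ends rather than those of each read.

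Igf2, the growth factor, lies on chromosome 7 from 142650766 to 142666816 on the minus strand. Its 11 reads in replicate 2 belonged to 1 unspliced model of 856 bases (142650769 to 142651624), which is the last exon of an annotated Igf2 transcript. None reached an annotated first exon or crossed an intron. Set against the 3 reads that a count of 0 allows in replicate 1, Igf2 was 3.59-fold higher in replicate 2. This is not a lower bound, since the exact 95% interval of the ratio began at 2.46. The test of 0 against 11 reads gave an adjusted p of 0.0153 (exact binomial test). Replicate 1 was not empty over this exon: 3 reads from 142650769 to 142652447, with the same end, were assigned to Gm49394. This is an annotated readthrough gene whose last exon (142650769 to 142654052) covers the Igf2 exon named above. When those reads were added to Igf2, a choice made after seeing the data, the values were 3 and 11 reads, the ratio was 3.59 (95% interval 0.949 to 20.0) and the call was lost (adjusted p = 0.276). No read was listed on the strand opposite to Igf2 in either library.

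Cdkn1c rose less than H19 between the libraries but with more reads behind it, by 1.24-fold (95% interval 1.12 to 1.37, adjusted p = 9.22e-04, exact binomial test). The ratio ran from 1.19 under spike-in scaling to 1.38 under median-of-ratios scaling. Igf1r had a ratio of 3.10 (1.19 to 9.49) and was not called (adjusted p = 0.116), and Igf2r had a ratio of 0.784 (0.413 to 1.47, adjusted p = 0.788). Without the unspliced genomic models Igf2r had 16 and 6 reads and a ratio of 0.371, and was not called either (adjusted p = 0.184, exact binomial test). With 45 reads of Igf2r in all, a change of the size seen for Cdkn1c was not detectable at this depth. Fewer cells of a type and less RNA per cell cannot be told apart in these whole-organ libraries. The liver markers moved in the same direction as H19, Igf2 and Cdkn1c, and their part in these differences was not tested. The summed markers of capsule and fibroblasts moved the other way (6 genes, 1947 to 1178 CPM). Of these, 3 of 5 tested were called lower in replicate 2, and 2 with TMM scaling. The sums also fell for smooth muscle and pericytes (3 genes, 198 to 82.2 CPM, 2 of 3 called) and endothelium (4 genes, 218 to 129 CPM, 1 of 4 called). Over all tested genes 4.81% were called on that side, and 1.87% with TMM scaling. Not every marker fell: Pdgfra had 5 and 9 reads, Nr2f2 39 and 41, and Cdh5 14 and 17.

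The other genes of the IGF axis give the setting of these receptors and ligands. Of 30 listed ligands, binding proteins, receptors, adaptors and proteases, 26 had reads and 18 could be tested. Called higher in replicate 2 were 4: the ligand Igf1, its serum carrier subunit Igfals, and the binding proteins Igfbp2 and Igfbp4. Over all tested genes 4.35% were called higher in replicate 2 and 4.81% higher in replicate 1. Igf1 rose from 10 to 72 reads (10.4 to 73.1 CPM, ratio 7.05, 95% interval 3.62 to 15.3, adjusted p = 9.29e-11, exact binomial test). Igfals had 1 and 21 reads (adjusted p = 3.39e-04, exact binomial test). It had enough reads for the test only through replicate 2, so its direction was not free to differ. Igfbp2 had 9 and 51 reads, a ratio of 5.55. Igfbp4 had 105 and 234 reads, a ratio of 2.18. Igf1, Igfals and Igfbp2 are known for strong expression in liver, whose 7 markers were all higher in replicate 2. The part of liver RNA in these 4 calls was not tested. Called higher in replicate 1 was only Akt1, a kinase downstream of the receptors (612 and 496 CPM), and this call was lost with TMM scaling (adjusted p = 0.432). The remaining 13 tested genes were not called, and the median log2 ratio of the 18 was 0.19.

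By the mean of both libraries, the axis was led by Igfbp7, a secreted protein related to the IGF-binding proteins, at 1014 and 1012 CPM (mean 1013 ± 1.12, SD, n = 2). It was followed by Akt1, by the secreted protease Htra1 (207 and 164 CPM), by Igfbp4 (109 and 238 CPM) and by Igfbp3 (116 and 77.2 CPM). The order of the last 3 differed in each library: Htra1, Igfbp3 and Igfbp4 in replicate 1, and Igfbp4, Htra1 and Igfbp3 in replicate 2. The insulin receptor Insr had 8 reads in each library, so the receptors Igf1r, Insr and Igf2r had at most 25 reads each in a library. No reads were listed for Ins1, Ins2, Irs4 or Pappa2. The ligand Igf1 thus had more reads than Igf2 in each library.

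**Figure D2:**
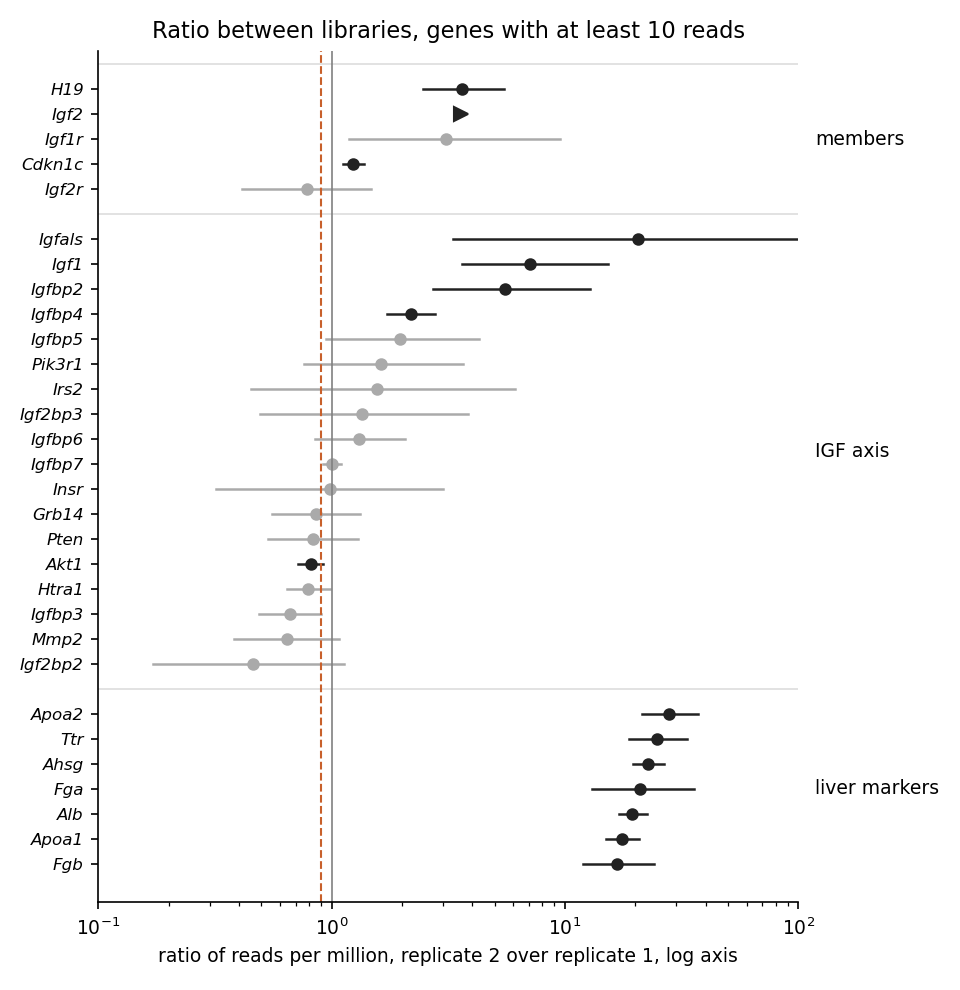
Ratio of CPM, replicate 2 over replicate 1 (log axis), with exact 95% intervals for the 5 tested members, the 18 tested IGF axis genes and the 7 liver markers. Black marks genes called at an adjusted p under 0.05, and the dashed line the median of all tested genes. The arrowhead marks Igf2 set against 3 reads in replicate 1, drawn without its interval. The liver markers lie between 16.8 and 27.9, H19 at 3.63 and Cdkn1c at 1.24. The upper bound of Igfals runs beyond the axis.

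Cdkn1c was the only member read deeply enough to count its splice forms one by one, and it was spliced in combinations that the annotation does not list. Of its reads, 38.1% in replicate 1 and 37.9% in replicate 2 matched an annotated transcript, against 76.3% and 73.7% over all annotated genes. A further 45.4% and 45.0% were classed as a new combination of known splice sites (4.48% and 3.70% over all genes). Another 11.1% and 13.1% were classed as using a new splice site (3.21% and 2.96% over all genes). These 2 labels were not always the same for the same chain in both libraries, as described below. These shares were not tested against other genes. The reads fell into 47 spliced chains, of which 22 were seen in both libraries, and the shared chains held 97.3% and 98.1% of the spliced reads. No chain seen in a single library had more than 3 reads.

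The 4 most frequent chains were the 4 pairings of 2 acceptors of intron 1 with 2 donors of exon 2, and together they held 77.7% of spliced reads in replicate 1 and 77.9% in replicate 2. The annotated Cdkn1c-201 had 214 and 272 reads. The same acceptor with the 36-base extension of exon 2 had 172 and 216 reads. The acceptor 3 bases further on had 73 and 97 reads with the shorter exon 2, and 63 and 76 reads with the longer one. Cdkn1c-202, whose acceptor lies 38 bases upstream, had 27 and 32 reads, and its counterpart with the longer exon 2 had 14 and 31. Cdkn1c-201 took 33.1% of full-splice reads in replicate 1 (Wilson 29.6% to 36.8%) and 32.9% in replicate 2 (29.7% to 36.1%), a share that was not called different (adjusted p = 1, two-sided Fisher's exact test). The pairs on the 3-base acceptor were classed differently in the 2 deposited tables, as a new combination in one and as a new site in the other, so classes were not used to count forms. In all, 6 shared chains changed class between the tables, with 155 reads in replicate 1 and 194 in replicate 2.

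Counted site by site, the intervals of the 2 libraries overlapped for every choice that follows. Of the reads that crossed intron 1 from exon 1, 68.8% (429 of 624) in replicate 1 and 66.7% (536 of 804) in replicate 2 ended at the Cdkn1c-201 acceptor. The second CAG of the tandem took 24.4% (Wilson 21.2% to 27.9%) and 24.3% (21.4% to 27.3%). The upstream acceptor of Cdkn1c-202 took 6.89% (5.16% to 9.15%) and 8.71% (6.95% to 10.9%). At the end of exon 2, the downstream donor that adds 36 bases took 44.4% (294 of 662, Wilson 40.7% to 48.2%) and 44.4% (374 of 842, 41.1% to 47.8%). In the annotation this donor occurs in Cdkn1c-205, a transcript that starts inside exon 2, which had 13 and 18 reads. The last intron ended 5 bases further on than in Cdkn1c-201 in 2.98% (20 of 671) and 4.36% (37 of 849) of reads.

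The downstream donor was used at similar shares with each acceptor. Over both libraries the downstream donor was joined by 44.8% (431 of 961, Wilson 41.7% to 48.0%) of reads with the Cdkn1c-201 acceptor, by 43.9% (152 of 346, 38.8% to 49.2%) of those with the 3-base acceptor and by 43.4% (49 of 113, 34.6% to 52.6%) of those with the upstream acceptor. The intervals of all 3 overlap, and no test was made of these shares.

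Read against the annotated coding sequence, the choices differ in what they change. The 3-base shift lies before the start codon of Cdkn1c-201: exon 2 begins 10 bases before that codon after the first CAG and 7 bases before it after the second. It leaves the reading frame of 335 codons as it is. The upstream acceptor brings in an earlier start codon in the same frame and gives 348 codons, 13 more. The 36-base extension keeps the frame and adds 12 codons without a stop, giving 347 codons from the start codon of Cdkn1c-201. The last intron lies beyond the stop codon. These are open reading frames computed from the sequence, and no protein was measured.

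Removal of part of exon 2 was rarer. The 84-base stretch was absent from 21 of 620 reads in replicate 1 (3.39%, Wilson 2.23% to 5.12%) and 29 of 803 in replicate 2 (3.61%, 2.53% to 5.14%). The 59-base stretch was absent from 18 reads (2.90%, 1.84% to 4.54%) and 15 reads (1.87%, 1.14% to 3.06%). Both stretches begin with GT and end with AG, and neither is an annotated intron. The annotated intron of 72 bases in the same place, that of Cdkn1c-203, had 1 read in each library. Loss of 84 bases keeps the frame (307 codons from the Cdkn1c-201 start), whereas loss of 59 bases shifts it and ends at another stop after 317 codons. As the printed sequences show, the region repeats short blocks such as GAGCAGG. The bases at the 2 ends of the 84-base stretch repeat over 4 bases and those of the 59-base stretch over 2, so the exact edge of each gap can be placed at more than a single position. Each stretch was absent from reads with each of the 3 acceptors of intron 1.

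**Figure D3:**
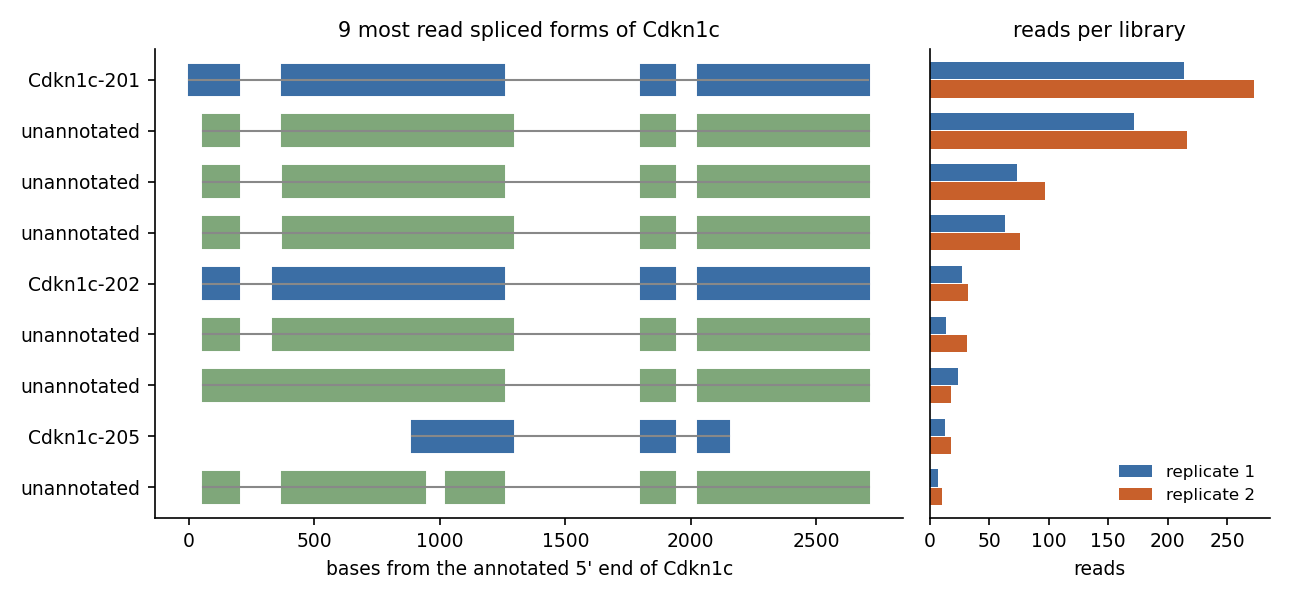
The 9 most read spliced forms of Cdkn1c, drawn to scale by their distance from the annotated 5′ end (left; blue, annotated; green, not annotated) with their reads in each library (right). The first 4 forms, with 214, 172, 73 and 63 reads in replicate 1, pair 2 acceptors with 2 donors of exon 2. Row 7 is drawn from its replicate 1 model (24 reads), which keeps the first intron. The replicate 2 model with the same later introns (18 reads) begins inside exon 2 instead. Row 9 lacks the 84-base stretch.

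The long receptors showed the opposite picture, with reads mostly confined to the 3′ end. Igf2r (chromosome 17, 12682406 to 12769664, minus strand) has an annotated transcript of 48 exons and 8887 bases. Unspliced reads over the end of its last exon made up 9 of 25 reads in replicate 1 and 14 of 20 in replicate 2. Partial models that begin within the gene and run to its 3′ end held 14 and 4 reads and covered from 4 to 43 exons. In full-splice models were 4 of 45 reads (8.89%, Wilson 3.51% to 20.7%). In replicate 1 these were a 49-exon chain and a 22-exon chain, each with a new splice site, and in replicate 2 the annotated 48-exon Igf2r-201 and a 47-exon new combination, at 1 read each. The 22-exon chain ended 27599 bases short of the annotated 3′ end, so a chain over the whole receptor gene was listed for 1 read in replicate 1 and for 2 reads in replicate 2.

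Igf1r (chromosome 7, 67952827 to 68233668, plus strand) has an annotated transcript of 21 exons and 11409 bases, of which the last exon makes up 7649. No read of Igf1r was in a full-splice model in either library (0 of 25, Wilson 0% to 13.3%). In replicate 1, 4 of 6 reads were unspliced within the last exon, 1 covered the first 8 exons and 1 covered 9 later exons. In replicate 2 all 19 reads were unspliced within the last exon. Genes whose longest annotated transcript is at least 6000 bases had 67.3% of their reads in full-splice models, against 85.5% below 3000 bases, so both receptors were lower than other long genes by this count, which was not tested.

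**Figure D4:**
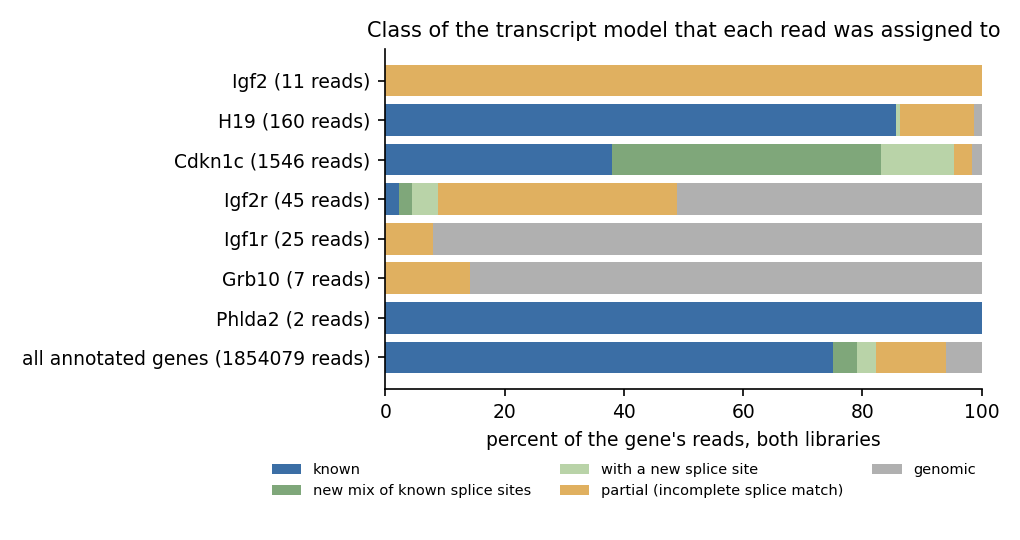
Percent of each gene's reads, both libraries summed, by the class of the transcript model they were assigned to, with all annotated genes in the bottom bar. Known models hold 85.6% of H19 reads, and models classed as new combinations of known sites hold 45.1% of Cdkn1c reads. The reads of Igf2r, Igf1r and Grb10 are mostly partial or unspliced (genomic).

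More reads were assigned to the strand opposite to Igf1r than to Igf1r itself. Within the span of the gene the opposite strand held 44 reads in 15 models in replicate 1 and 77 reads in 14 models in replicate 2, against 6 and 19 reads of Igf1r, and no annotated gene accounts for them. A single spliced model of 672 bases and 2 exons led in both libraries, with 26 and 39 reads (27.0 and 39.6 CPM, ratio 1.47, 95% interval 0.872 to 2.51, no test made). Its exons run from 67952827 to 67952952 and from 68003810 to 68004355, which are the coordinates of exons 1 and 2 of Igf1r-201, and its intron of 50857 bases is intron 1 of Igf1r on the other strand. On the strand of Igf1r itself, that intron was crossed by 1 read in replicate 1 and none in replicate 2. The junction is printed as Igf1r exon 1 joined to exon 2 (exon 2 in capitals) and as the reverse complement, the strand to which the 65 reads were assigned, with the exon 2 side again in capitals:
Igf1r strand: cgacgagtggagaaaTCTGTGGGCCCGGCA
opposite strand: TGCCGGGCCCACAGAtttctccactcgtcg

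The other opposite-strand models at Igf1r were unspliced, apart from 1 read in each library. The most read lay inside the last exon (68227778 to 68227971 in replicate 1 and to 68227991 in replicate 2), with 4 and 11 reads, and in each library it ended at the base where the main unspliced Igf1r model of that library begins. Replicate 2 had 6 reads from 67951354 to 67952952, across the start of the gene. It also had 5 reads in an intron at 68104156 to 68104507, 4 at 67998218 to 67998347 and 3 at 67996398 to 67996511. Replicate 1 had 2 reads at 67982033 to 67984759. The models that begin at 68069363 had 1 read in replicate 1 and 2 in replicate 2. Models with a single read numbered 12 and 7.

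Spliced models with the introns of the gene on the other strand were listed at other genes too. Among spliced reads of unannotated antisense genes, 44.8% (756 of 1687, Wilson 42.5% to 47.2%) in replicate 1 and 44.9% (819 of 1823, 42.7% to 47.2%) in replicate 2 had only introns with the coordinates of annotated introns of the opposite strand. Such reads were found at 329 genes with a median of 1 read, and Igf1r, with 65, ranked 5 among them. On the ERCC spike-ins, which were added as RNA of known strand, 0.799% (136 reads, Wilson 0.676% to 0.944%) and 0.790% (143 reads, 0.671% to 0.930%) were assigned to the opposite strand. Whether the reads at Igf1r were transcribed from the opposite strand was not tested, and the bases at the ends of the intron were not analysed here.

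**Figure D5:**
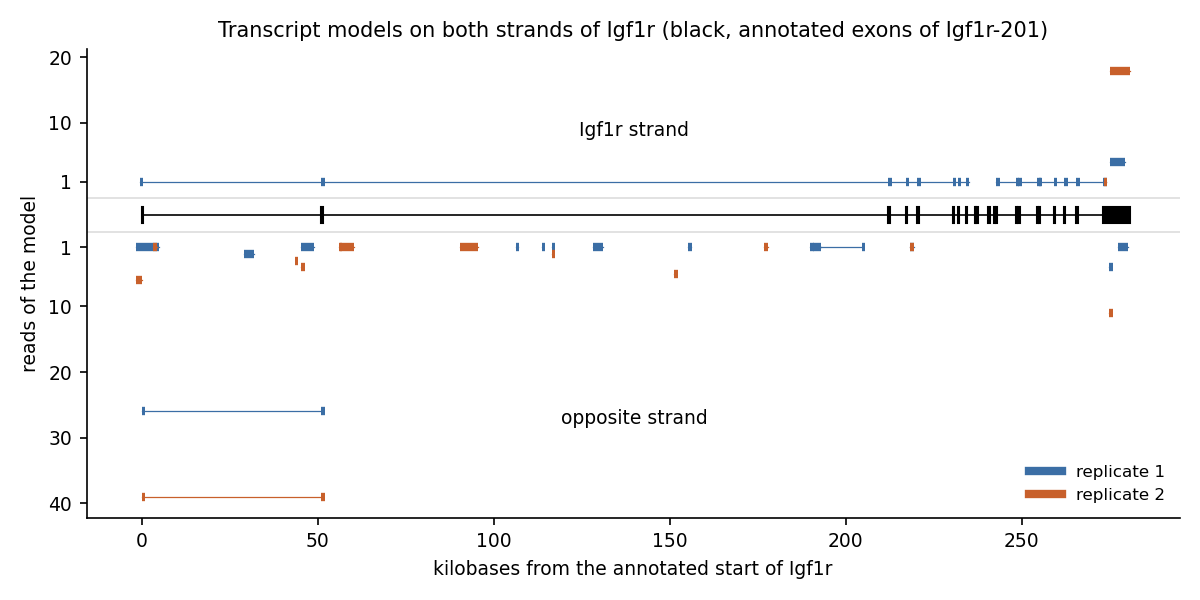
Transcript models at Igf1r by distance from the annotated start (kilobases) and by reads, above the axis on the Igf1r strand and below it on the opposite strand, in replicate 1 (blue) and replicate 2 (orange). Black boxes are the exons of Igf1r-201, and exons are widened to at least 1 kilobase to be visible. The 2-exon opposite-strand model has 26 and 39 reads, while the Igf1r strand holds mainly last-exon reads.

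At the other members the opposite strand was read less. Igf2r is overlapped by Airn, a noncoding RNA transcribed from the opposite strand and known to silence the paternal copy of Igf2r in many tissues, which had 13 and 10 reads (13.5 and 10.2 CPM) and was not called (adjusted p = 0.847, exact binomial test). Airn reads inside the span of Igf2r numbered 9 and 8, and 2 further opposite-strand reads in replicate 1 belonged to no annotated gene. Grb10 (chromosome 11, 11930508 to 12038683, minus strand) had 8 and 18 unspliced opposite-strand reads, against 3 and 4 reads of its own. The most read of these models lay at the 3′ end of Grb10, with 6 reads from 11930508 to 11931704 in replicate 1 and 6 reads from 11932479 to 11933094 in replicate 2. H19, Cdkn1c, Igf2 and Phlda2 had none in either library.

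Grb10 reads were almost all unspliced, with 5 of 7 lying within the last exon. A single read in replicate 2 was spliced, over 12 exons, and began at the first exon at 12037192 to 12037401. Both reads of Phlda2 (chromosome 7, 143501545 to 143503150, minus strand), in replicate 1, matched the annotated 2-exon transcript of 757 bases. At these counts neither a difference between the libraries nor a choice between the Grb10 promoters could be measured.

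The neighbours of the 7 genes in their imprinted clusters showed no shared direction. Of 27 listed genes 18 had reads and 14 were tested, with 2 calls on the side of each library and a median log2 ratio of -0.12. With TMM scaling 4 were called higher in replicate 2 and 1 in replicate 1. Over all tested genes 4.35% were called higher in replicate 2 and 4.81% higher in replicate 1. With TMM scaling these shares were 5.99% and 1.87%. Beside Igf2r, Plg, which encodes plasminogen and is expressed in liver, had 3 and 72 reads (ratio 23.5). Plg too had enough reads only through replicate 2, so its direction was not free to differ. The other call on the side of replicate 1 beside Th was Lsp1, a leukocyte protein gene near H19, with 31 and 8 reads (ratio 0.253). Th, tyrosine hydroxylase of the chromaffin cells and a neighbour of Igf2, had the highest mean of the list (1534 and 1372 CPM), and its call was lost with TMM scaling (adjusted p = 1).

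By mean level Cd81, which encodes a tetraspanin, followed Th at 1382 and 1423 CPM, above Th in replicate 2. Then came Nap1l4 (110 and 102 CPM), Mrpl23 (77.7 and 109.6 CPM) and Tssc4 (68.4 and 46.7 CPM), with Mrpl23 above Nap1l4 in replicate 2. Th and Cd81 were thus read more than Igf2, which lies in the same part of the chromosome, in both libraries. Kcnq1ot1, the noncoding RNA of the cluster that holds Cdkn1c and Phlda2, had 2 reads in each library, far fewer than the 683 and 863 reads of Cdkn1c beside it. No reads were listed for Igf2os, the antisense partner of Igf2.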

How the data were processed

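Long reads of 2 adrenal libraries of 1 group were used. Per the labels and the text deposited beside the files, reads were placed on mm10 with the GENCODE M21 annotation, and the models were made with TALON, a tool that classes them by intron chain, per the file headers and annotation. The aligner is not given in the sources used here, nor are versions or filters. The authors deposited whole read counts for each model, neither normalized nor pooled. The deposited tables also give exon numbers, lengths and classes. Totals were 981697 and 1003061 reads, of which 1.73% and 1.80% were on ERCC spike-ins and left out. Of known models 100% carry annotated ends on both sides, so the ends given are those of the deposited models and not of single reads.

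Counts were summed per gene, and 1 read was 1.04 or 1.02 CPM. With 1 group there is no contrast between conditions. The exact binomial test and, for the top transcript (20 or more full-splice reads per library), Fisher's exact test were run in scipy 1.17.1 and adjusted in statsmodels 0.14.6. Log2 ratios of lists used 0.5 added reads. Scalings came from edgeR 4.0.16 (TMM) and DESeq2 1.42.0. Both tests were also run on simulated counts with known changes but no added spread between libraries, so such spread is not covered. There the binomial test recovered 42% of 2-fold changes and 94% of 4-fold changes. Chains were matched by intron coordinates, and reading frames and repeats were read from GENCODE M21 transcripts. A model counted for a first exon when its 5′ end lay within 50 bases. Named genes were all members, and of the IGF axis and cluster lists the 5 highest, every called gene and the noncoding partners, together with models of at least 5 reads (6 per gene) and opposite-strand Igf1r models of at least 2 reads over both libraries. The splice sites and removed stretches of Cdkn1c were chosen after their reads were seen. Members, lists and tests were chosen with earlier results of these data known. The values of 1 called gene of the cluster list are not reported here.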

Additional observations from a re-analysis of the deposited data

How the results depend on the processing

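The number of genes called between the libraries (1017) stayed within 1.5 times of its value under all 8 alternatives, from 732 to 1145 with spike-in scaling. The 732 came from leaving out 117 genes that were called and at least 10-fold higher in replicate 2. These were taken out of the denominator and of the test, which left 10977 genes. They were picked by the same test, so part of that fall was fixed in advance. The split moved: 47.5% of calls were higher in replicate 2 with the main scaling and 76.1% with TMM. The 3 called members were called under every alternative in which they could be tested. Igf2 could not be tested with a minimum of 50 reads or with known models only, which left 2 calls, and its call was lost with the reads of Gm49394 added (chosen after seeing the data). The top-transcript test called from 4 to 7 genes, 6 in the main setting. Known models alone gave a mean of 423 CPM for Cdkn1c, 0.726 for Igf2r and none for Igf1r and Grb10. These values were scaled to the reads of known models only, 702833 in replicate 1 and 688235 in replicate 2. They therefore cannot be set directly against the main levels, which were scaled to all reads without spike-ins. In reads, known models held 260 of 683 for Cdkn1c in replicate 1 and 327 of 863 in replicate 2. The share of Igf2r reads in full-splice models was 0% when models with 1 read were left out. Opposite-strand reads at Igf1r averaged 60.5 per library, and 33.5 with spliced models alone. Leaving out a replicate leaves 1 library, so neither test could be repeated, and values of single libraries stand in the report. No paired analysis was possible because there is 1 group. Depth limits Igf2, Igf1r, Grb10 and Phlda2 most, at 25 reads or fewer each.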
